A study of Homo sapiens with 6 samples.

Results

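The genes of fatty acid synthesis and desaturation were followed in the parental ZR-75-1 line, which was derived from a human breast cancer and carries the oestrogen receptor, after treatment with abemaciclib, an inhibitor of the cell cycle kinases CDK4 and CDK6. The 36 genes were chosen by symbol, from the steps that supply acetyl-CoA, build the fatty acid chain, lengthen it, place double bonds in it, activate it with coenzyme A and join it to glycerol, and they are 36 of the 60656 genes in the count table. The cells were grown in medium with serum, with 500 nM abemaciclib or with an equal volume of DMSO, for 4 days, and each group had 3 libraries. All 6 libraries came from one cell line that carries no engineered change. Cells with RB1 knocked out were not analysed here. The question the comparison addresses is which transcripts differ once CDK4 and CDK6 are inhibited.

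Fatty acids are built in the cytosol from acetyl-CoA. ATP citrate lyase releases acetyl-CoA from citrate, acetyl-CoA carboxylase turns it into malonyl-CoA, and fatty acid synthase condenses these units into palmitate with NADPH as the reductant. Enzymes of the endoplasmic reticulum then lengthen the chain or place a double bond in it: stearoyl-CoA desaturase acts on saturated chains and the FADS enzymes on polyunsaturated ones. The transcription factor SREBP-1, encoded by SREBF1, switches on most of the pathway, and many breast cancers make fatty acids even where lipids can be taken up.

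Reads came from the 3′ ends of mRNAs, which makes the count of a gene independent of transcript length. The DMSO libraries held 3317860 to 3473916 counts and the abemaciclib libraries 3344919 to 4013156. Levels are given in CPM (counts per 1000000 of the library total scaled by the TMM method), and where no read was counted the true level may have reached 0.736 to 0.904 CPM, the worth of 3 counts, by counting error alone. The quasi-likelihood test of edgeR compared the groups over the 10863 genes that passed the filter on low counts, with P values adjusted by the Benjamini–Hochberg method and a threshold of 0.05, and each log2 fold change is abemaciclib over DMSO with its standard error (SE). The study describes independent biological replicates. The P values and SEs rest on the spread between these libraries, estimated in part across genes, so they do not measure the spread of each gene alone. The markers of luminal breast epithelium were all detected, summing to 3626 to 3875 CPM with DMSO and 3658 to 4192 CPM with abemaciclib. Of these 6 markers ESR1 rose (log2 fold change 0.83, adjusted P = 2.92e-07) and KRT18 fell (-0.34, adjusted P = 0.00515). KRT5, KRT14 and VIM, markers of basal or mesenchymal cells, PTPRC and CD3E, markers of leukocytes, and ADIPOQ, PLIN1 and FABP4, markers of adipocytes, had 0 counts in all 6 libraries. The other markers of those cell types summed to 18.7 to 29.1 CPM with DMSO and 10.6 to 17.0 CPM with abemaciclib for COL1A1 and ACTA2. They summed to at most 0.297 CPM for the leukocyte list and to at most 1.97 CPM for the adipocyte list. ACTA2 went from 21, 28 and 44 counts with DMSO to 6, 2 and 6 with abemaciclib (log2 fold change -2.82). It passed the filter on low counts only through the DMSO libraries. All 5 proliferation genes fell, and their sum went from between 2643 and 2831 CPM to between 135 and 142 CPM. Of these, CCNA2 had 2, 4 and 6 counts with abemaciclib and passed the filter on low counts only through the DMSO libraries. The part of the proliferation genes in the results below was not tested, and in bulk RNA fewer cells of a type and less RNA per cell cannot be told apart. Abemaciclib replicate 3 stood further from the other abemaciclib libraries (chi-square over its degrees of freedom of 6.43 and 6.79) than these stood from each other (3.39).

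The promoters of 6 genes are shown: AACS and SREBF1, the largest rises whose calls held in all settings described below but a minimum log2 fold change of 1, ACLY and SCD, smaller rises at the entry of the pathway and at its first desaturation, and FADS1 and FADS2, neighbours on chromosome 11 and the only falls. Each line holds the 250 bases before the RefSeq transcription start on GRCh38.p14, 5′ to 3′ on the strand of the gene. They are chr12:125065185-125065434 on the plus strand for AACS, chr17:17836987-17837236 on the minus strand for SREBF1, chr17:41919023-41919272 on the minus strand for ACLY, chr10:100346983-100347232 on the plus strand for SCD, chr11:61817004-61817253 on the minus strand for FADS1 and chr11:61815953-61816202 on the plus strand for FADS2. Capitals mark the letters CCAAT, or ATTGG where they lie on the other strand, which occur in the lines of ACLY and SCD and in none of the others, so that genes that rose are shown with and without them. The genes shown were picked with their values known.
AACS: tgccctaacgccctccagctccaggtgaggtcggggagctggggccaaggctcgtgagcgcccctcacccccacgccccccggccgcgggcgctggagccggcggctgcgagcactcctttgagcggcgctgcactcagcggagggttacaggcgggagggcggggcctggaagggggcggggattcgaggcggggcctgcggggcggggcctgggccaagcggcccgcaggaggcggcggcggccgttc
SREBF1: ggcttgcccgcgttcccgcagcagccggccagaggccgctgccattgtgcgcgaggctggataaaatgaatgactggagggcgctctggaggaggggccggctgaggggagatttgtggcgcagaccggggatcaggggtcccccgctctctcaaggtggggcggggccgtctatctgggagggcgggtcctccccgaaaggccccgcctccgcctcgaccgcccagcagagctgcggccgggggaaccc
ACLY: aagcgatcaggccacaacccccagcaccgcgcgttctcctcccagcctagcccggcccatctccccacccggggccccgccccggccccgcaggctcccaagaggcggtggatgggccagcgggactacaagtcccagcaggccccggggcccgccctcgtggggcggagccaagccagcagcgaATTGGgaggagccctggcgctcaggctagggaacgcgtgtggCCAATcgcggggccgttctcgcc
SCD: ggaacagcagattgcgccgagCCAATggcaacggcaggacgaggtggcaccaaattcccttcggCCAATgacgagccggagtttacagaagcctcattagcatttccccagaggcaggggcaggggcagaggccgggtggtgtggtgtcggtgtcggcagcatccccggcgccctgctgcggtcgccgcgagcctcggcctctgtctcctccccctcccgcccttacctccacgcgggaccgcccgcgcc
FADS1: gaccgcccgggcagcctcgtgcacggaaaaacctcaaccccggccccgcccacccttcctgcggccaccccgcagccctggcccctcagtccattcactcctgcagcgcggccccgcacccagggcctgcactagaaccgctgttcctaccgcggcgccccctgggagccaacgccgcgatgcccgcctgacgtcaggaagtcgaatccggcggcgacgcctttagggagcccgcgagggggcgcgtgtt
FADS2: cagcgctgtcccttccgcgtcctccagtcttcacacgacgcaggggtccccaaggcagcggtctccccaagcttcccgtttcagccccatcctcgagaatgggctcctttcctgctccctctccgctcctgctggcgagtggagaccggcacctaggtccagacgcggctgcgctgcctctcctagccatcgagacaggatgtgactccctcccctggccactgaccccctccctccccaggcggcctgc

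The RefSeq starts of FADS1 and FADS2 lie 800 bases apart on opposite strands, and in GENCODE the whole FADS1 gene (61799627 to 61829318) lies within the span of FADS2 (61792980 to 61867354), with no exon of another gene in the last 500 bases of either. Over windows of 300 bases (250 before and 50 after the start), which were at hand for 33 of the 36 genes, FASN not among them, CCAAT on either strand was found in 14. Among the genes that rose it was present in 7 of the 10 with a window (ACLY, ACSS2, ELOVL5, HACD3, SCD, ACSL3 and AGPAT3), among tested genes that did not pass the threshold in 5 of 13, and in 0 of the 2 that fell. The share was 34.6% over all 35116 windows and 37.7% over the 8589 windows of genes tested. The letters TCACNCCAC, a form of the sterol regulatory element bound by SREBP, were found on either strand in 0 of the 33 windows, in 1.13% of all windows and in 1.00% of those of genes tested. CACGTG, the E-box of basic helix-loop-helix factors, was found in 1 of the 33, ELOVL5, in 7.26% of all windows and in 10.5% of those of genes tested. TTTNGCGC, an E2F-like motif, was found in 1, ACACA, in 1.79% of all and in 3.25% of those of genes tested. The GC box GGGCGG, the motif of SP1, was found in 26 of the 33, in 45% of all windows and in 72.7% of those of genes tested. These are matches of letters, which do not show that a factor is bound.

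Of the 36 genes, 28 had enough counts for the test, and each of these exceeded the minimum of the filter, 2.93 CPM, in all 6 libraries. Abemaciclib raised 12 of the 28, or 42.9%, and lowered 2, or 7.14%, while 14 did not pass the threshold. Over all 10863 genes tested, 12.5% were higher and 13.3% lower. The 36 genes were chosen with earlier results of these data known, so these shares are described and their difference was not tested. The median log2 fold change of the 28 was 0.12, beside a median of -0.00178 over all genes, and it was 0.21 without DMSO replicate 3. The genes that rose stood at every stage of the route, from acetyl-CoA supply to triglyceride assembly, and both genes that fell were desaturases of polyunsaturated fatty acids. The rises were small: the log2 fold changes of the 12 lay between 0.43 and 0.99, whereas the larger fall, that of FADS1, reached -1.71. In 10 of the 12 the abemaciclib libraries all lay above the DMSO libraries, and in the other two, FASN and DGAT1, the groups overlapped. The number that rose was 9 with DESeq2 in place of edgeR and 9 without abemaciclib replicate 2. Calls of ACSS2, ACACA, FASN and DGAT1 were lost under at least 1 alternative setting. The other 8 rises and the falls of FADS1 and FADS2 kept their calls in all settings tried, apart from a minimum log2 fold change of 1, which keeps FADS1 only.

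**Figure D1:**
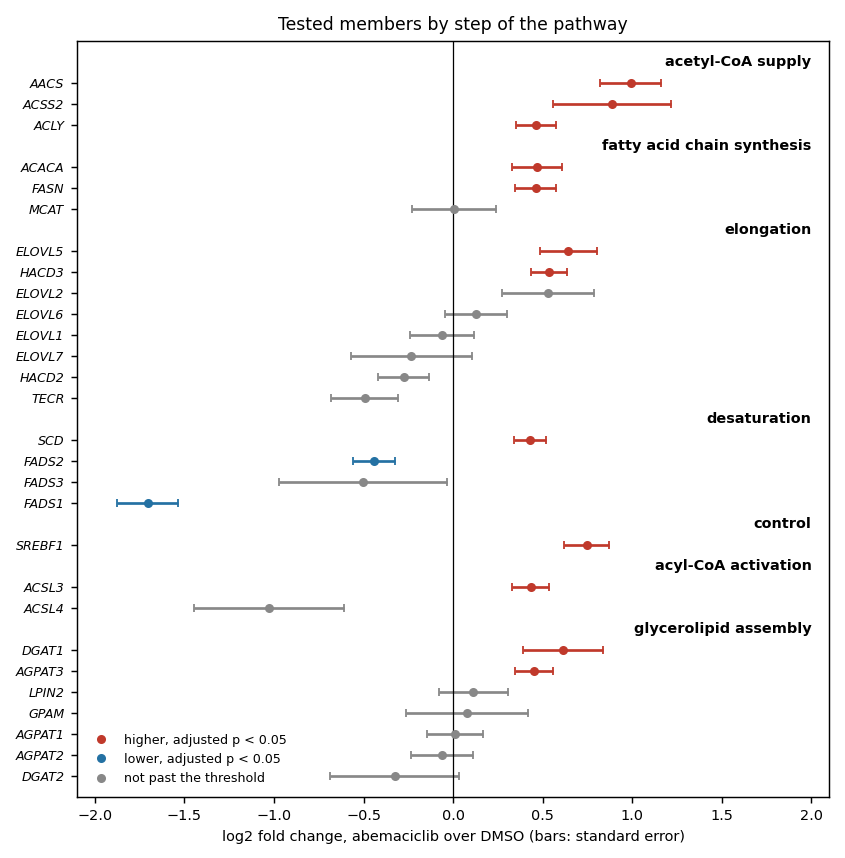
Log2 fold change of each tested gene, abemaciclib over DMSO, on the horizontal axis, with its standard error as a bar, grouped by step of the pathway; red marks genes higher and blue genes lower at an adjusted P under 0.05. All 3 tested genes of acetyl-CoA supply lie to the right of 0, and FADS1 lies furthest to the left, at -1.71.

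All 3 tested genes of acetyl-CoA supply rose. ACLY, the ATP citrate lyase (chromosome 17, 41866917 to 41930542), stood at 206, 166 and 164 CPM with DMSO and at 240.2, 219.8 and 279 CPM with abemaciclib. The treated libraries all lay above the DMSO libraries, the nearest pair being DMSO replicate 1 and abemaciclib replicate 2. The mean went from 179 ± 23.3 to 246 ± 30.1 CPM (SD, n = 3), with a fitted log2 fold change of 0.46 (SE 0.11, adjusted P = 0.00273). AACS, the cytosolic acetoacetyl-CoA synthetase, which makes acetyl units from ketone bodies, stood at 23.5, 31.2 and 26.4 CPM with DMSO and at 49.9, 57.5 and 53.5 CPM with abemaciclib. It had the largest rise of the 28 tested genes, with groups that lay far apart, and its mean went from 27.0 ± 3.89 to 53.6 ± 3.79 CPM (log2 fold change 0.99, SE 0.17, adjusted P = 5.14e-05).

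ACSS2, the enzyme that makes acetyl-CoA from free acetate in the cytosol and nucleus, stood at 5.51, 6.54 and 9.69 CPM with DMSO and at 10.6, 18.0 and 11.3 CPM with abemaciclib. The groups met closely, DMSO replicate 3 lying just under abemaciclib replicate 1, and abemaciclib replicate 2 stood above the rest. Its log2 fold change of 0.89 (SE 0.33) passed narrowly, at an adjusted P of 0.0480, and the call was lost with DESeq2 (0.119), with total counts as the only scaling (0.0537), with a replicate block (0.0729) and without DMSO replicate 1 (0.172), DMSO replicate 2 (0.141) or abemaciclib replicate 2 (0.289). Its mitochondrial relative ACSS1 had 4, 2 and 6 counts with DMSO and 11, 4 and 3 with abemaciclib, too few for a test.

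In the synthesis of the chain itself the tested cytosolic enzymes rose and the mitochondrial one did not pass the threshold. ACACA, the cytosolic acetyl-CoA carboxylase that commits acetyl-CoA to fatty acid synthesis, stood at 57.4, 48.7 and 61.5 CPM with DMSO and at 73.8, 84.4 and 73.2 CPM with abemaciclib. The groups did not overlap, and the mean went from 55.9 ± 6.53 to 77.1 ± 6.27 CPM (log2 fold change 0.47, SE 0.14, adjusted P = 0.0131). The call was lost without DMSO replicate 2 (0.0994) or abemaciclib replicate 2 (0.0787). ACACB, the isoform at the mitochondrial surface whose malonyl-CoA restrains fatty acid oxidation, had 0 counts in all 3 DMSO libraries and 0, 4 and 2 counts with abemaciclib. ACACA had 164 to 342 counts in the same libraries.

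FASN, the fatty acid synthase (chromosome 17, 82078338 to 82098294), stood at 2420.1, 2705 and 2835 CPM with DMSO. With abemaciclib it stood at 4432, 3799 and 2725 CPM. The first pair of treated libraries was well above all DMSO libraries, but abemaciclib replicate 3 lay between DMSO replicates 2 and 3, so the groups overlapped. The means were 2653 ± 212 and 3652 ± 863 CPM, a log2 fold change of 0.46 (SE 0.11, adjusted P = 0.00313), which was 0.63 without abemaciclib replicate 3 and 0.30 without abemaciclib replicate 1. With DESeq2 the fold change was the same size, 0.47, but the call was lost (adjusted P = 0.105). FASN alone made up 48.1% to 53.7% of the counts of the 36 genes with DMSO, and 58.7%, 53.8% and 46.5% in the abemaciclib libraries. MCAT, the malonyl transferase of mitochondrial fatty acid synthesis, had a log2 fold change of 0.00 (SE 0.23, adjusted P = 0.996).

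**Figure D2:**
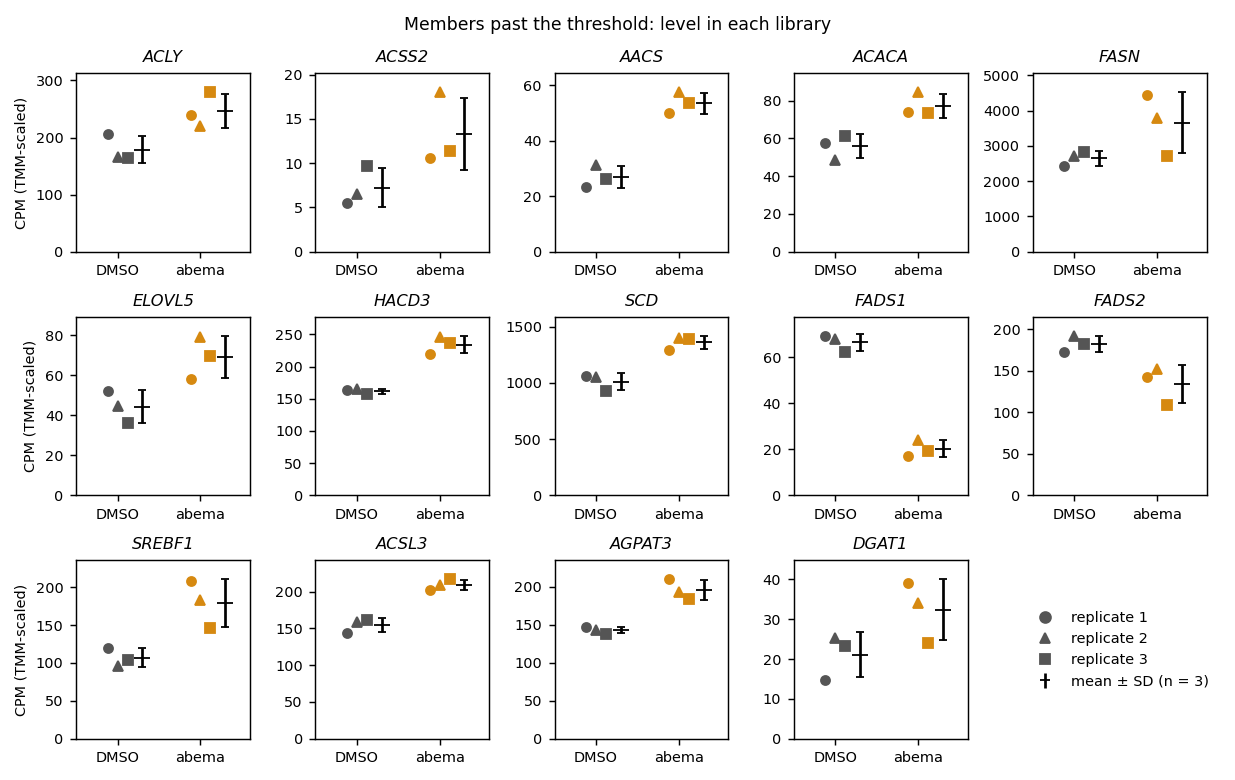
Level in CPM (vertical axes, each starting at 0) of the 14 genes past the threshold in the 3 DMSO and 3 abemaciclib libraries; symbols mark the replicate and bars the mean ± SD. The groups overlap for FASN and DGAT1, where abemaciclib replicate 3 (square) is the lowest treated library, and the other 12 genes show no overlap.

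Of 9 genes of elongation, 8 were tested, and 2 of these rose while the other 6 did not pass the threshold. ELOVL5, an elongase of polyunsaturated fatty acids, stood at 52.2, 44.6 and 36.04 CPM with DMSO and at 58.1, 79.2 and 69.7 CPM with abemaciclib. The groups did not overlap, though the lowest treated library was close to the highest DMSO library, and the mean went from 44.3 ± 8.09 to 69.0 ± 10.6 CPM (log2 fold change 0.64, SE 0.16, adjusted P = 0.00320). HACD3, a dehydratase of the elongation cycle, stood at 163, 165 and 157 CPM with DMSO and at 219.6, 246 and 236 CPM with abemaciclib. Its libraries were tightly grouped, and it was 1.45-fold higher (log2 fold change 0.54, SE 0.10, adjusted P = 0.000181).

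The last enzyme of the elongation cycle, the reductase TECR, stood at 33.4, 31.8 and 38.2 CPM with DMSO and at 24.5, 22.5 and 26.5 CPM with abemaciclib. All its treated libraries were below all DMSO libraries, with a log2 fold change of -0.49 (SE 0.19) and an adjusted P of 0.0519, which became 0.0447 with total counts as the only scaling and 0.0497 without abemaciclib replicate 3. HACD2, another dehydratase, also had every treated library below the DMSO libraries (log2 fold change -0.28, SE 0.14, adjusted P = 0.161). ELOVL2, another elongase of polyunsaturated fatty acids, had every treated library above them (0.53, SE 0.26, adjusted P = 0.138). None of these 3 genes passed the threshold in the main comparison. Among the 36 genes, the elongases of saturated and monounsaturated chains gave values around 0, with overlapping groups: -0.06 (SE 0.18) for ELOVL1, 0.13 (SE 0.17) for ELOVL6 and -0.23 (SE 0.34) for ELOVL7. ELOVL6, the elongase that takes palmitate to stearate, was at 30.0 to 35.7 CPM with DMSO and 34.8 to 35.9 CPM with abemaciclib. HACD1 had 3, 8 and 4 counts with DMSO and 4, 1 and 4 with abemaciclib and was not tested.

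The desaturases moved in opposite directions. SCD, the stearoyl-CoA desaturase that makes oleate and palmitoleate (chromosome 10, 100347233 to 100364826), stood at 1062, 1048 and 924 CPM with DMSO and at 1296, 1398 and 1389 CPM with abemaciclib. The groups were well apart, with means of 1011 ± 75.8 and 1361 ± 56.7 CPM, a 1.35-fold rise (log2 fold change 0.43, SE 0.09, adjusted P = 0.000481). Unlike FASN, SCD was not low in abemaciclib replicate 3, with 1389 CPM there. SCD5, the other human stearoyl-CoA desaturase, had 5, 6 and 4 counts with DMSO and 5, 4 and 2 with abemaciclib, beside 3050 to 5668 counts of SCD in the same libraries.

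FADS1, the delta-5 desaturase of polyunsaturated fatty acid synthesis, stood at 69.3, 68.0 and 62.4 CPM with DMSO and at 17.2, 24.2 and 19.5 CPM with abemaciclib. The fall was seen in every treated library, none of which came near a DMSO library. The mean fell 3.28-fold, from 66.6 ± 3.68 to 20.3 ± 3.54 CPM (log2 fold change -1.71, SE 0.17, adjusted P = 7.50e-09), the largest change of the 28 tested genes in either direction. FADS2, the delta-6 desaturase that acts before FADS1 on the same chains, stood at 173, 192 and 183 CPM with DMSO and at 143, 152 and 108 CPM with abemaciclib. Again the groups did not overlap, with abemaciclib replicate 3 the lowest, and the mean went from 183 ± 9.81 to 134 ± 23.1 CPM (log2 fold change -0.44, SE 0.12, adjusted P = 0.00610), or -0.30 on the log2 scale without abemaciclib replicate 3. FADS3, the remaining gene of the cluster (chromosome 11, 61873519 to 61892051), gave 3.19, 5.05 and 12.4 CPM with DMSO and 3.63, 5.92 and 4.86 CPM with abemaciclib (log2 fold change -0.50, SE 0.47, adjusted P = 0.483). Its groups overlapped, and a single high DMSO library set the sign, which turned to 0.23 without DMSO replicate 3.

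The fitted falls of FADS1 and FADS2 differed in size. The ratio of FADS2 to FADS1 counts, which does not depend on library scaling, was 2.49, 2.82 and 2.93 in the DMSO libraries and 8.22, 6.27 and 5.54 in the abemaciclib libraries. The groups did not overlap, and the log2 ratio went from 1.45 ± 0.12 to 2.72 ± 0.29 (SD, n = 3), a difference of 1.27. The exact permutation test (two-sided) gave P = 0.1, the smallest it can give with 3 libraries against 3, and 0.25 after adjustment over the 5 pairs of related genes planned. The paired ratios of SCD to SCD5, ACACA to ACACB and ACSS2 to ACSS1 rest on the few counts given above for the lesser gene and are not interpreted.

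Among the genes of transcriptional control, SREBF1, which encodes SREBP-1 (chromosome 17, 17810399 to 17837002), stood at 120.4, 95.7 and 104 CPM with DMSO and at 208, 183 and 146 CPM with abemaciclib. Every treated library was above every DMSO library, and abemaciclib replicate 3, the library in which FASN was low, was also the lowest treated library for SREBF1. The mean went from 107 ± 12.6 to 179 ± 31.2 CPM, a 1.68-fold rise (log2 fold change 0.74, SE 0.13, adjusted P = 4.39e-05). An exon of RAI1 on the opposite strand overlaps the 3′ end of SREBF1, and since the use of strand in the counting is not stated, reads of the 2 genes may not be told apart. RAI1 had mean counts of 96 and 121 and a log2 fold change of 0.21 (adjusted P = 0.461). THRSP, which encodes the lipogenic protein Spot 14, had 3, 0 and 4 counts with DMSO and 10, 6 and 4 with abemaciclib, too few for a test, and its 3′ end overlaps NDUFC2.

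Of the 4 acyl-CoA synthetases 2 were tested, and 1 of these rose. ACSL3, which activates long-chain fatty acids at the endoplasmic reticulum and on lipid droplets, stood at 144, 159 and 162 CPM with DMSO and at 202, 209 and 217 CPM with abemaciclib. The groups lay apart, and the mean went from 155 ± 9.35 to 209 ± 7.16 CPM (log2 fold change 0.43, SE 0.10, adjusted P = 0.00215). ACSL4, which prefers arachidonate and other polyunsaturated fatty acids, stood at 7.25, 8.02 and 7.57 CPM with DMSO and at 3.63, 3.45 and 4.05 CPM with abemaciclib. Every treated library was below every DMSO library, on 12 to 15 counts each, and the log2 fold change of -1.03 (SE 0.42) did not pass (adjusted P = 0.0702), although it did over genes with at least 10 counts in every library (0.0233). ACSL1 had 12, 8 and 20 counts with DMSO and 5, 8 and 6 with abemaciclib, and ACSL5 had 0 counts in all 6 libraries. Neither was tested.

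Of 8 genes of glycerolipid assembly, 7 were tested and 2 rose. AGPAT3, an acyltransferase that makes phosphatidic acid, stood at 147, 143 and 138 CPM with DMSO and at 209.7, 193 and 184 CPM with abemaciclib. The groups lay well apart, and it was 1.37-fold higher (log2 fold change 0.45, SE 0.10, adjusted P = 0.00168). DGAT1, which makes triglyceride in the last step of the route, stood at 14.8, 25.2 and 23.3 CPM with DMSO and at 39.0, 34.0 and 24.0 CPM with abemaciclib. Its groups overlapped, abemaciclib replicate 3 lying within the DMSO range, and the log2 fold change of 0.61 (SE 0.22) passed narrowly (adjusted P = 0.0425). The adjusted P was 0.105 by DESeq2, 0.0524 with total counts as the only scaling and 0.0698 with a replicate block. It rose to 0.237 when DMSO replicate 1 was left out, to 0.0573 for DMSO replicate 3, to 0.184 for abemaciclib replicate 1 and to 0.1199 for abemaciclib replicate 2. In addition, the 3′ end of DGAT1 overlaps HSF1 on the opposite strand, whose log2 fold change was -0.02 (adjusted P = 0.941).

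The other acyltransferases and phosphatases of the step gave values around 0 with overlapping groups. GPAM, the mitochondrial acyltransferase that starts the route, had a log2 fold change of 0.08 (SE 0.34). AGPAT1, whose 3′ end overlaps EGFL8, had 0.01 (SE 0.15) and AGPAT2 -0.06 (SE 0.17). LPIN2, a phosphatidic acid phosphatase, had 0.11 (SE 0.19), and the second triglyceride synthase, DGAT2, had -0.33 (SE 0.36, adjusted P = 0.560). Each of these 5 values was smaller in size than its standard error. LPIN1 had 7, 7 and 3 counts with DMSO and 6, 14 and 6 with abemaciclib and was not tested. The ratio of DGAT1 to DGAT2 counts was 1.81, 2.48 and 3.16 with DMSO and 6.64, 5.23 and 2.93 with abemaciclib. These ratios overlapped between the groups (log2 difference 0.95, exact permutation test, two-sided, P = 0.2, adjusted P = 0.333).

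The treated libraries did not all show the rises to the same extent. Together the 36 genes took 0.499% to 0.531% of all counts with DMSO and 0.746%, 0.713% and 0.569% in abemaciclib replicates 1, 2 and 3. FASN took 0.240% to 0.282% with DMSO and 0.438%, 0.384% and 0.265% with abemaciclib, whereas SCD took 0.0919% to 0.106% and 0.128% to 0.141%. In abemaciclib replicate 3 the share of FASN was thus within the DMSO range and that of SCD above it. Of the 12 genes that rose, abemaciclib replicate 3 was the lowest treated library for 5 (ACACA, AGPAT3, DGAT1, FASN and SREBF1), abemaciclib replicate 1 for 6 (AACS, ACSL3, ACSS2, ELOVL5, HACD3 and SCD) and abemaciclib replicate 2 for ACLY. Against the DMSO mean, FASN was 0.74 and 0.52 higher on the log2 scale in abemaciclib replicates 1 and 2 and 0.04 higher in abemaciclib replicate 3, while ACLY was 0.43, 0.30 and 0.64 higher. Without abemaciclib replicate 3, 12 of the genes were called higher and 3 lower.

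**Figure D3:**
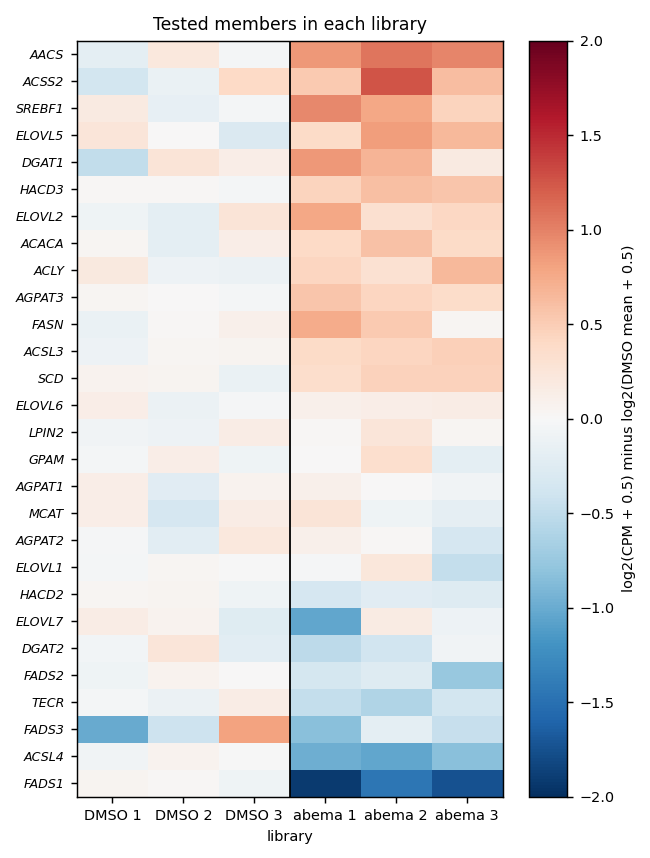
Level of the 28 tested genes in each library (columns) as log2(CPM + 0.5) minus log2(DMSO mean + 0.5), red above and blue below the DMSO mean, ordered by the mean over the abemaciclib libraries. FASN and DGAT1 are pale in abemaciclib replicate 3 (0.04 and 0.18), and FADS1 is dark blue in all 3 abemaciclib libraries (-1.92, -1.44 and -1.75).

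Beyond the 36 genes, 6 genes of citrate and NADPH supply were described, all of them tested. Of these 2 rose and 0 fell, with a median log2 fold change of 0.17, and 0 rose when DMSO replicate 2 or abemaciclib replicate 1 was left out. For this and the other neighbouring lists, the shares over all 10863 genes tested were 12.5% higher and 13.3% lower. ME1, the cytosolic malic enzyme, a source of NADPH, rose from 22.4 ± 1.82 to 34.2 ± 2.57 CPM (log2 fold change 0.61, SE 0.19, adjusted P = 0.0167), a call lost without DMSO replicate 1 (0.0691), DMSO replicate 2 (0.0540) or abemaciclib replicate 1 (0.0617). IDH1, the cytosolic isocitrate dehydrogenase, rose by 0.41 on the log2 scale (SE 0.15, adjusted P = 0.0391), a call lost with DESeq2 (0.0834), with a replicate block (0.0582) and when any library other than DMSO replicate 1 was left out (0.0532 to 0.211). SLC25A1, the carrier that brings citrate to the cytosol, had a log2 fold change of 0.03 (SE 0.12) and, like FASN, its lowest treated level in abemaciclib replicate 3, at 345 CPM beside 557 and 509 CPM in the other treated libraries.

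Of the 11 genes listed for SREBP and related control, 10 were tested, 2 rose and 0 fell (median log2 fold change 0.07). SCAP, the escort protein that carries SREBP to the Golgi, went from 74.6 ± 8.30 to 102 ± 11.7 CPM (log2 fold change 0.45, SE 0.13, adjusted P = 0.0110), a call lost without DMSO replicate 1 (0.0679), DMSO replicate 2 (0.0688) or abemaciclib replicate 1 (0.0705). MLXIPL, which encodes the carbohydrate-responsive factor ChREBP, went from 16.4 ± 1.29 to 25.5 ± 4.13 CPM (0.63, SE 0.22, adjusted P = 0.0322), a call lost by DESeq2's test (0.0855) and on leaving out DMSO replicate 1 (0.1001), DMSO replicate 2 (0.0931) or abemaciclib replicate 3 (0.156). SREBF2, which encodes the SREBP of cholesterol synthesis, did not pass the threshold and stood at 75.6 ± 7.91 and 62.1 ± 8.69 CPM (log2 fold change -0.28, SE 0.14, adjusted P = 0.147). INSIG1, the protein that holds SCAP in the endoplasmic reticulum, stood at 75.1, 77.2 and 66.9 CPM with DMSO and at 57.8, 62.2 and 50.8 CPM with abemaciclib (-0.36, SE 0.14, adjusted P = 0.0545). Its treated libraries all lay below the DMSO libraries.

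The 9 genes of mitochondrial fatty acid synthesis gave no call in either direction among the 7 tested by edgeR (median log2 fold change 0.05), with 0 higher and 1 lower at an unadjusted P under 0.05. DESeq2 also called 0 of them in either direction, and 1 was lower without abemaciclib replicate 3. With 12.5% of all genes tested higher and 13.3% lower, few calls would arise among 7 genes, so their absence tells little. Among 6 further genes of elongation and desaturation, all tested, 2 rose and 0 fell. ELOVL3, an elongase of very long saturated chains, had 6, 5 and 5 counts with DMSO and 37, 20 and 34 with abemaciclib, a log2 fold change of 2.38 (SE 0.51, adjusted P = 0.000695). It passed the filter on low counts only through the abemaciclib libraries, and with no filter the adjusted P was 6.70e-05. DEGS2, a desaturase of sphingolipids whose 3′ end overlaps EVL, stood at 145, 151 and 145 CPM with DMSO and at 259, 226 and 173 CPM with abemaciclib (0.58, SE 0.12, adjusted P = 0.000587). In DEGS2 too, abemaciclib replicate 3 was the lowest treated library. Of 9 further genes of acyl activation and glycerolipid assembly, 5 were tested: GPAT4, an acyltransferase of the endoplasmic reticulum, rose from 139.6 ± 7.32 to 186 ± 8.63 CPM (0.41, SE 0.10, adjusted P = 0.00403), and its relative GPAT3 fell, from 21, 17 and 26 counts to 5, 5 and 7 (-2.02, SE 0.52, adjusted P = 0.00441). GPAT3 passed the filter only through the DMSO libraries, and with no filter the adjusted P was also 0.00441.

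**Figure D4:**
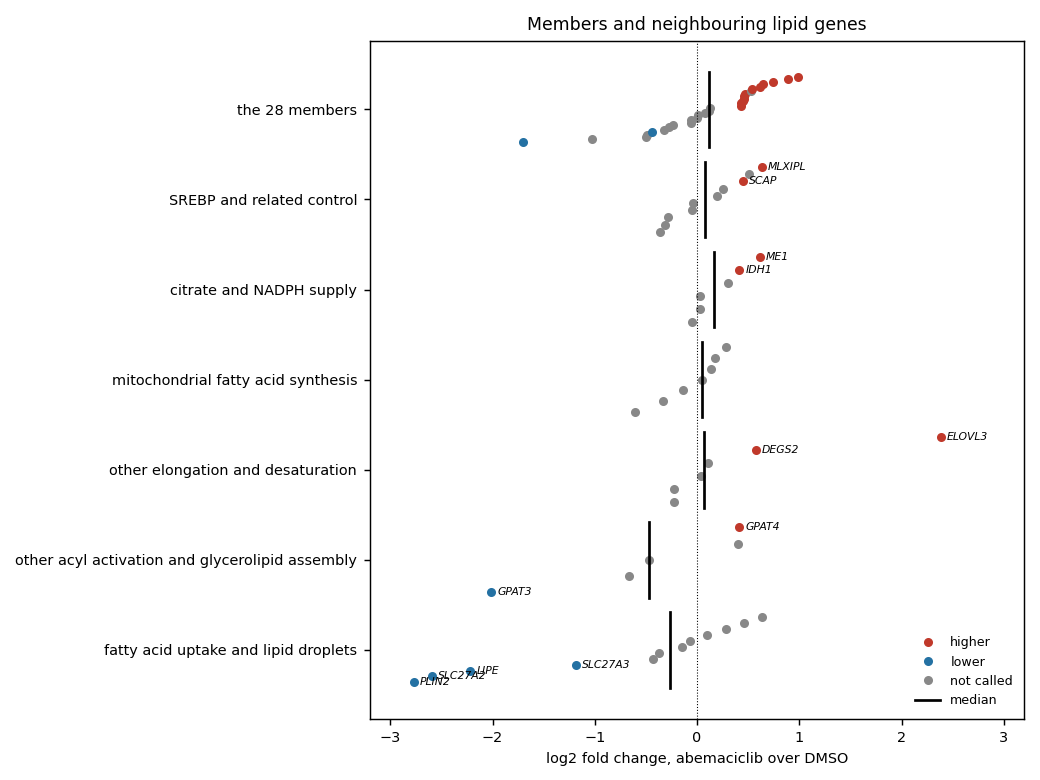
Log2 fold change, abemaciclib over DMSO (horizontal axis), of the 28 tested genes and of tested genes in 6 lists of neighbouring lipid functions; each point is a gene, red if higher, blue if lower and grey if not past the threshold, and the black bar is the median of the list. The medians run from -0.47 for other acyl activation and glycerolipid assembly to 0.17 for citrate and NADPH supply, beside 0.12 for the 28 genes.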

How the data were processed

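The 6 RNA-seq libraries (3 DMSO, 3 abemaciclib) were grouped by their labels alone. Per the labels and the study's methods, the authors trimmed reads of a 3′ kit with BBDuk, aligned these with STAR 2.7.5b (hg38) and counted them per gene with featureCounts 2.0.1 on a GENCODE annotation, and they deposited these raw counts, without normalization. The use of strand in counting is not given in the sources used here. The limits given where no read was counted cover counting error only, whereas the SD and SE include the spread between libraries. For the SE that spread is estimated in part across genes.

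The analysis used edgeR 4.0.16 under R 4.3.3 (filterByExpr, TMM scaling, glmQLFit and glmQLFTest, Benjamini–Hochberg adjustment over 10863 genes, threshold 0.05). The SE is the size of the log2 fold change over the square root of F. Symbols were matched for 60445 of 60656 identifiers. Coordinates and 3′-end overlaps (500 bases) are from GENCODE v44 on GRCh38, and promoters are from RefSeq. The table held 0 further sample columns. Libraries of a group differed by more than sampling noise (chi-square over degrees of freedom of 2.78 to 6.79). The steps were tested on simulated data.

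The 36 genes and the neighbouring lists were chosen with earlier results of these data known. Values per library are given for genes past the threshold or with too few counts for a test and for neighbouring lists the called genes with the largest change, at most 4 each; TECR, ACSL4, FADS3, ELOVL6, SREBF2, INSIG1, SLC25A1, PLIN3, PNPLA2 and FABP5 were picked with their values known and are shown beyond this rule. One gene of a neighbouring list was left out, and genes of these lists that did not pass the threshold are mostly given as counts only. The alternatives were DESeq2 1.42.0 as the test, edgeR with the size factors of DESeq2 or with total counts only, other filters, a replicate block, each library left out, other pseudocounts for ratios (1 and 0.1 in place of 0.5), and a minimum log2 fold change of 1.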

Additional observations from a re-analysis of the deposited data

How the results depend on the processing

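Of 64 values of the main results under alternatives (the numbers of genes and of fatty acid genes called, and the median of the latter), 59 stayed within the limits set for an unchanged value and 5 moved. These limits were wide for the numbers called: 981 genes higher and 9 fatty acid genes higher still counted as unchanged, beside 1354 and 12 in the main comparison. With a minimum log2 fold change of 1, which removes small changes by construction, 322 genes were higher and 645 lower, with 0 fatty acid genes higher and 1 lower. Leaving out 1 library at a time gave 981 to 1412 genes higher, 1132 to 1529 lower, 9 to 12 fatty acid genes higher, 2 to 3 lower, and a median of 0.0889 to 0.21. Of 477 values of single genes, 428 kept their direction and side of the threshold, 33 lost the threshold, 3 gained it and 13 changed sign. None of the changes of sign concerned a called gene: MCAT (-0.012 with total counts, -0.0052 with at least 10 counts in every library, -0.15 to 0.088 with a library left out), AGPAT1 (-0.0053 with total counts, -0.097 to 0.080 with a library left out), and, with a library left out, ELOVL1 (-0.24 to 0.12), ELOVL7 (-0.51 to 0.048), FADS3 (-0.85 to 0.23), GPAM (-0.093 to 0.20) and AGPAT2 (-0.16 to 0.061); the cause was not tested. DESeq2 called 1069 genes higher and 1166 lower. The deviations of same-numbered libraries gave correlations of -0.04, 0.01 and -0.09, and all but DMSO replicate 2 correlated best with another number. With 3 libraries per group and correlations this small, it cannot be told whether same-numbered libraries were paired. A fit with a replicate block called 1139 genes higher and 1280 lower, with 10 and 2 of the fatty acid genes. Genes that reached 2.93 CPM in fewer than 3 libraries were not tested at this depth.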

Other observations

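Genes of fatty acid uptake and of the lipid droplet, where the products of synthesis are stored, gave calls only downwards by edgeR's test. Of 22 genes listed, 12 were tested, 0 rose (3 at an unadjusted P under 0.05, 0 with DESeq2, and 1 without abemaciclib replicate 3) and 4 fell, with a median log2 fold change of -0.26. The falls were 33.3% of the genes tested, beside 13.3% lower and 12.5% higher over all genes tested. Among 12 genes, 0 rises are not far from that general share. PLIN2, the perilipin that coats lipid droplets in most cells, stood at 27.8, 29.4 and 27.0 CPM with DMSO and at 3.33, 2.47 and 6.48 CPM with abemaciclib. The groups were far apart, a 6.86-fold fall (log2 fold change -2.77, SE 0.30, adjusted P = 3.65e-08). LIPE, the hormone-sensitive lipase, which overlaps the antisense gene LIPE-AS1, stood at 11.3, 18.1 and 24.5 CPM with DMSO and at 5.75, 2.96 and 2.97 CPM with abemaciclib (-2.22, SE 0.36, adjusted P = 2.97e-05). The fatty acid transport proteins SLC27A2 and SLC27A3 fell as well: SLC27A2 had 27, 27 and 30 counts with DMSO and 4, 8 and 3 with abemaciclib (-2.59, SE 0.51, adjusted P = 0.000273), and it passed the filter on low counts only through the DMSO libraries (adjusted P = 2.26e-05 with no filter). SLC27A3 went from 86.7 ± 3.84 to 38.0 ± 5.68 CPM (-1.19, SE 0.14, adjusted P = 2.85e-07). Before TMM scaling, PLIN2 and LIPE reached the filter's minimum of 2.93 CPM in every DMSO library but not in every abemaciclib library. They too therefore passed the filter only with the DMSO libraries. Over genes with at least 10 counts in every library, 3 of the list fell.

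Other tested genes of the list did not pass the threshold. PLIN3, a perilipin found on nascent droplets, stood at 173, 179 and 139.9 CPM with DMSO and at 191, 194 and 212 CPM with abemaciclib (0.28, SE 0.11, adjusted P = 0.0593). PNPLA2, the lipase that opens triglyceride breakdown, stood at 49.3, 49.0 and 46.6 CPM with DMSO and at 43.6, 34.8 and 29.5 CPM with abemaciclib (-0.43, SE 0.17, adjusted P = 0.0598). FABP5, a fatty acid binding protein, had 25, 12 and 8 counts with DMSO and 1, 2 and 0 with abemaciclib and was not tested, and LPL, PLIN1, FABP4 and BSCL2 had 0 counts in all 6 libraries. The genes of this paragraph were chosen after their values were seen.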
